A study of Drosophila melanogaster with 3 samples.

Results

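The genes described here encode the core proteins of the spliceosomal particles: the 7 Sm proteins (SmB, SmD1, SmD2, SmD3, SmE, SmF and SmG) and 3 proteins of the U1 particle (snRNP-U1-70K, snRNP-U1-C and snf). These 10 genes were taken by name from 13945 protein-coding genes of Drosophila melanogaster on the chromosome arms covered. The rule for choosing them used their names and no peak value, but they were proposed with results of these data known. For each one, the reproducible putzig summit at its transcription start site (TSS), the peak signal, the offset, the neighbour sharing the peak and the rank in each replicate were read from the deposited peak lists. The data are ChIP-seq of putzig fused at its C-terminus to eGFP, from whole transgenic embryos of mixed sex collected from 0 to 24 h, in 3 biological replicates of 1 group, with no second condition. The free-text note of each library speaks of an input control, whereas its assay and antibody fields name a putzig ChIP, and the libraries were read here as putzig ChIP. The reproducible list holds 6522 summits in dm6 coordinates, and equally many of the strongest peaks of each replicate gave the spread. Read depth was not given by these lists and is unknown. Whole embryos mix many cell types, so a strong peak in few cells and a weak one in many cannot be told apart.

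Each spliceosomal particle (snRNP) is built around a small nuclear RNA. The Sm proteins close into a ring around the Sm site of the U1, U2, U4 and U5 RNAs, and this ring is needed for the particles to mature and enter the nucleus. The U1 particle recognises the 5′ splice site at the start of splicing: snRNP-U1-70K binds a stem-loop of U1 RNA and contacts SR proteins, snRNP-U1-C steadies the pairing with the 5′ splice site, and snf does in flies the work of 2 mammalian proteins, one of the U1 and one of the U2 particle. Putzig, which has zinc fingers, works together with Trf2, a relative of the TATA-binding protein, and with Dref, the factor that recognises the DNA replication-related element (DRE). Many genes used in all cells have promoters with a DRE or with Motif 1, another element of such promoters, and often lie head to head with a neighbour.

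The promoters differ in where such an element stands, and the sequences below are shown because they carry that difference. In capitals are DRE (TATCGATA, which reads the same on both strands) and Motif 1 (GGTCACAC, or GTGTGACC where it lies on the other strand). All sequences are read 5′ to 3′ along the named gene, from the RefSeq Release 6 genome, which is dm6. The first 3 are windows of 100 bp to each side of the reproducible summit, at genes whose summit lay nearer the neighbour's TSS than their own. They come from chr2L:10426733-10426933, minus strand, chr3L:12734759-12734959, minus strand and chrX:16640794-16640994, minus strand.
SmB: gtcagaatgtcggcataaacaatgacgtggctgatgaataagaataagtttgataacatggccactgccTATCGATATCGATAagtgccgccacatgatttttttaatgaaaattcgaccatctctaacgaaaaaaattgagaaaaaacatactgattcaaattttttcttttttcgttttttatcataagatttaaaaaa
SmD1: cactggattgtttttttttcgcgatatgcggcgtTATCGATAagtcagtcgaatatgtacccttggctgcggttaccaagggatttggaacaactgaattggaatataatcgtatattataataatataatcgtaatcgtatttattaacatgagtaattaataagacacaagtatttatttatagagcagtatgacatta
SmG: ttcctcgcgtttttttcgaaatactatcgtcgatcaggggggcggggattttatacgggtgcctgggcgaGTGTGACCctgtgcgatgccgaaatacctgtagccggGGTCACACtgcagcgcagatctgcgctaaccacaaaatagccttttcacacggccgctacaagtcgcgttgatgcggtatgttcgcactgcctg

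The other 4 are promoters, from 250 bp upstream of the TSS through the first 50 transcribed bases. They are the SmE promoter with both elements (chr2L:7885401-7885700, minus strand), the snf promoter with a DRE just before the TSS (chrX:5308992-5309291, plus strand), the snRNP-U1-C promoter with a DRE far from its summit (chr3R:18983601-18983900, minus strand) and the snRNP-U1-70K promoter with Motif 1 just inside the transcript (chr2L:6971688-6971987, minus strand).
SmE: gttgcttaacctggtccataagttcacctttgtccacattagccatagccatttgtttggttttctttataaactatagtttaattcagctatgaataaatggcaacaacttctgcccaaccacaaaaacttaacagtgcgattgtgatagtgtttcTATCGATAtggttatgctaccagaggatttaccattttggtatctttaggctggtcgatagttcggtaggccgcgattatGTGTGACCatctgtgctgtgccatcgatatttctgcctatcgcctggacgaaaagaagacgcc
snf: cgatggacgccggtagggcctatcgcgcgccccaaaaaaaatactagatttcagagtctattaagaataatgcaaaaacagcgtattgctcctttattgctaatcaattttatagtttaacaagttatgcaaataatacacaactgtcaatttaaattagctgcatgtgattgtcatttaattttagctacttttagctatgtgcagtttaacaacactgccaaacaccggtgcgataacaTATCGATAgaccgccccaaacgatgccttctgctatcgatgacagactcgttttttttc
snRNP-U1-C: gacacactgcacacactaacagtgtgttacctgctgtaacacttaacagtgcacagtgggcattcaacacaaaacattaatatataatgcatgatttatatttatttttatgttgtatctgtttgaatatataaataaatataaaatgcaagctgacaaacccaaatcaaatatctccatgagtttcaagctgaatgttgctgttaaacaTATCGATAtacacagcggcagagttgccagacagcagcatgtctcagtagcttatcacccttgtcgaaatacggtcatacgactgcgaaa
snRNP-U1-70K: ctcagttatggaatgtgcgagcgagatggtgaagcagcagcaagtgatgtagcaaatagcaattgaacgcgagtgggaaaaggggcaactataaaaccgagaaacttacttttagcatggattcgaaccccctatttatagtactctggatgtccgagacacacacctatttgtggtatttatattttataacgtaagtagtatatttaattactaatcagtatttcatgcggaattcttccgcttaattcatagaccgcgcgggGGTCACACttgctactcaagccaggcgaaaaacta

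Putzig stood at or beside the promoter of every gene of the group, but not always at the gene's own TSS. A reproducible summit lay within 250 bp of the TSS of 8 of the 10 genes, where 42.6% of all protein-coding genes had one. The exceptions were SmG and snRNP-U1-C, whose summits lay 475 and 268 bp upstream. Just inside the 250 bp limit was SmD1 at 248 bp, and just outside it snRNP-U1-C. Within 500 bp all 10 genes had a summit, against 46.6% of protein-coding genes. The TSS itself fell inside a reproducible peak interval at 9 genes, all but SmD1, against 41.7% of protein-coding genes. In the strongest peaks of replicates 1, 2 and 3 the 250 bp rule held for 8, 8 and 9 of the genes, against 42.4%, 42.3% and 41.7% of protein-coding genes, and the additional gene in replicate 3 was SmG. Since the genes were proposed with these data known, the counts describe the genes and were not tested.

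**Figure D1:**
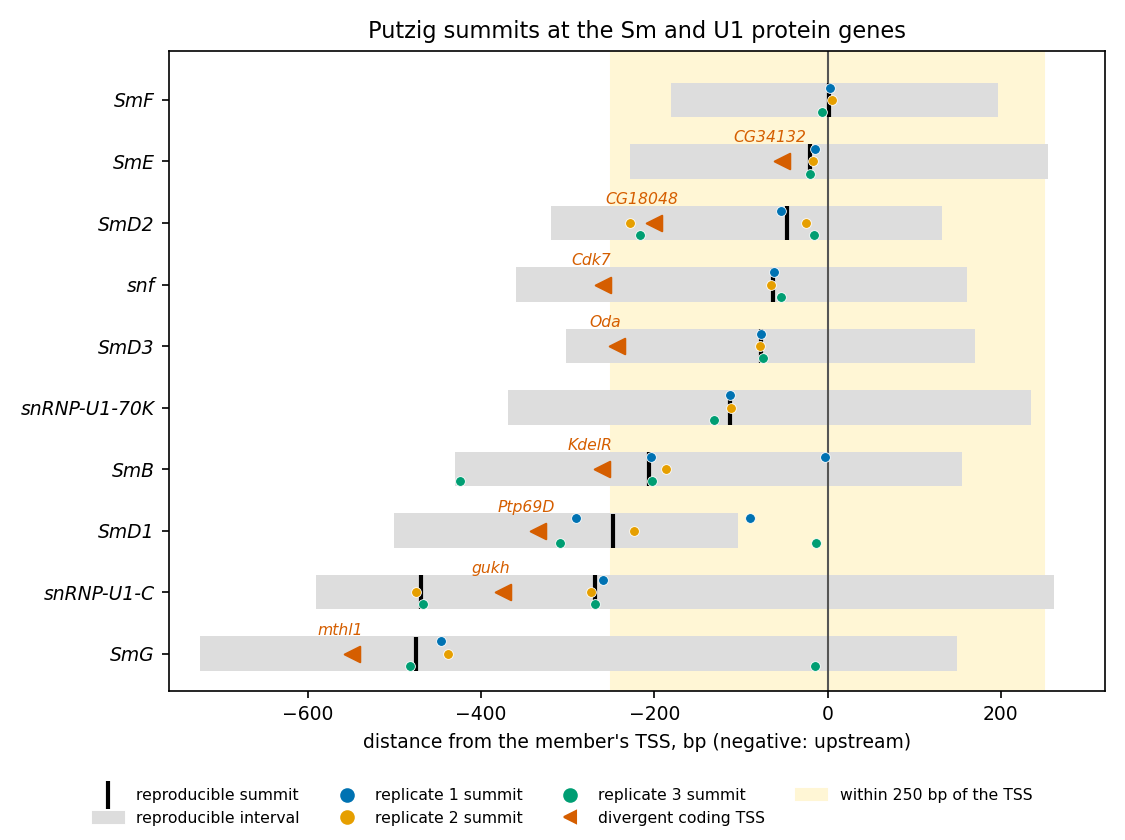
Position of putzig summits at the 10 genes, as distance in bp from each gene's TSS, with upstream to the left. Grey bars are the intervals of the reproducible list, black ticks its summits, coloured points the summits of each replicate among its strongest peaks, and orange triangles the TSS of a coding neighbour pointing the other way. The reproducible summits of SmF and SmE sit on or close to the TSS, and those of SmB, SmD1, snRNP-U1-C and SmG sit nearer the neighbour.

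Among the U1 proteins, snRNP-U1-C and snRNP-U1-70K carried the 2 strongest peaks of the group. The snRNP-U1-C gene (3R, 18982964 to 18983650, minus strand) lay beside a peak from 18983389 to 18984241 with a signal of 5784, rank 121 of 6522. Its ranks in replicates 1, 2 and 3 were 136, 123 and 64, at signals of 2502, 2189 and 1250. The summit was found 259, 273 and 268 bp upstream of the TSS in these replicates, so no replicate placed it within 250 bp. It lay 107 bp upstream of the divergent gene gukh, which encodes guk-holder, a partner of the synaptic scaffold Dlg. The interval held a second, weaker reproducible summit 469 bp upstream of the snRNP-U1-C TSS, with a signal of 536. Replicates 2 and 3 resolved this second summit and replicate 1 did not.

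The snRNP-U1-70K gene (2L, 6968711 to 6971737, minus strand) had a peak from 6971502 to 6972106 with a signal of 5059 and rank 185. Replicates 1, 2 and 3 ranked it 180, 176 and 264, at signals of 2286, 2004 and 792, with summits 113, 111 and 131 bp upstream of the TSS. No other annotated TSS lay within 250 bp of this summit, and no coding gene pointed away from it within 600 bp. Beside SmF it was the one gene of the group without an opposing coding neighbour.

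The snf gene (X, 5309242 to 5310501, plus strand) had a peak from 5308882 to 5309403 with a signal of 2671 and rank 989. Its summit lay 62, 65 and 54 bp upstream of the TSS in replicates 1, 2 and 3. The ranks were 927, 857 and 1680, at signals of 1252, 1141 and 300, and replicate 3 ranked it lower than the others. On the other side of this peak lay Cdk7, the kinase of the general transcription factor TFIIH, whose TSS was 196 bp from the summit.

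The genes of the SmD proteins spanned most of the group's range. SmD3 (2R, 12168731 to 12170003, plus strand) had the strongest peak of all Sm genes, with a signal of 4364 and rank 307. Its summit lay 77, 78 and 74 bp upstream of the TSS in the replicates, a range of 4 bp, and its ranks were 398, 296 and 185, at signals of 1779, 1720 and 892. The promoter is shared with Oda, which encodes ornithine decarboxylase antizyme, an inhibitor of polyamine synthesis. The summit lay 166 bp upstream of the nearest Oda TSS and, since Oda also has a farther start, inside an Oda intron.

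SmD2 (3R, 6345000 to 6345911, minus strand) had an intermediate peak, from 6345779 to 6346230, of signal 1697 and rank 2080, 47 bp upstream of the TSS. Its ranks in the replicates were 1933, 2077 and 2565, at signals of 812, 692 and 206. Each replicate also held a weaker summit near the divergent gene CG18048, 254, 228 and 217 bp upstream of the SmD2 TSS, of which those of replicates 2 and 3 were among the strongest peaks. The SmD2 interval of replicate 3 ended just short of the reproducible summit, although its own summit lay 16 bp upstream of the TSS.

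SmD1 (3L, 12733364 to 12734611, minus strand) had one of the weakest peaks of the group, from 12734714 to 12735112, with a signal of 1210 and rank 2960. The reproducible summit, 248 bp upstream, stood between 2 positions that replicates 1 and 3 resolved separately. Replicate 1 had summits 90 and 291 bp upstream, with signals of 617 and 517. Replicate 3 had them 13 and 309 bp upstream, with a signal of 79 at each. Replicate 2 had a single summit 224 bp upstream, with a signal of 537. The far position lay beside Ptp69D, a receptor tyrosine phosphatase of axon guidance, whose TSS is 334 bp from that of SmD1. The ranks of the strongest summit, 90, 224 and 309 bp upstream in replicates 1, 2 and 3, were 2638, 2773 and 4906. This was the widest spread of the group, though over differing positions.

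SmB (2L, 10425483 to 10426627, minus strand) was similar, with a peak from 10426472 to 10427057. The signal was 1089, the lowest of the group, at rank 3226. The reproducible summit lay 206 bp upstream of SmB and 54 bp upstream of KdelR, the receptor that returns proteins to the endoplasmic reticulum. Replicate 1 alone also had a summit 3 bp upstream of the SmB TSS, with a signal of 515 against 429 at the far one. Replicates 2 and 3 had their strongest summit 186 and 203 bp upstream, with signals of 526 and 130. The ranks of the strongest summit were 3120, 2821 and 3759.

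The SmE, SmF and SmG peaks were of intermediate strength. The SmE gene (2L, 7884930 to 7885450, minus strand) had a peak from 7885195 to 7885678 with a signal of 2966 and rank 791. Its ranks in the replicates were 777, 969 and 618, at signals of 1351, 1077 and 552. Its summit lay 15, 17 and 20 bp upstream of the TSS. CG34132 starts only 53 bp away on the other strand, and the summit lay between the TSSs, 33 bp from that of CG34132. The same summit lay within an intron of CG7102.

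SmF (2R, 12183844 to 12184310, minus strand) was the one gene of the group with its reproducible summit downstream of the TSS, by 2 bp, in its 5′ UTR. The signal was 2070 at rank 1566, and the ranks were 1655, 1685 and 1253, at signals of 909, 799 and 376. Its summits lay 3 and 5 bp downstream in replicates 1 and 2 and 6 bp upstream in replicate 3. The reproducible summit also lay within introns of CG13175 and CG33964, and no other TSS lay within 250 bp of its summit. The annotated SmF gene is 467 bp long, so the peak interval of 379 bp covered the start of the gene and sequence before it.

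SmG, annotated as SNRPG (X, 16639810 to 16640419, minus strand), had a wide peak of 875 bp, from 16640270 to 16641144, against a median of 424 bp over the reproducible list. Its signal was 2656 at rank 1001, with ranks of 965, 1277 and 404 in the replicates, at signals of 1227, 939 and 670. The summit lay 446, 438 and 482 bp upstream of SmG, and the reproducible one was 74 bp upstream of mthl1, a methuselah-like receptor gene. Replicate 3 alone resolved another summit 15 bp upstream of SmG, with a signal of 119 against 670 at the mthl1 side. The most common peak width was 324 bp in replicate 3 and 440 and 456 bp in replicates 1 and 2. The part of this difference in the separate summits of replicate 3 was not tested.

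Opposing gene pairs were the common arrangement. A coding TSS on the other strand lay upstream within 500 bp at 7 of the 10 genes, and at SmG it lay 549 bp away. Of all protein-coding genes 26.4% had such a neighbour within 500 bp. Of those with a reproducible summit within 250 bp of any TSS 48.0% did. In 4 of these 8 pairs the reproducible summit was nearer the neighbour (SmB, SmD1, SmG and snRNP-U1-C). In the other 4 it was nearer the splicing gene (SmD2, SmD3, SmE and snf). In replicate 1, however, the strongest summits at SmB and SmD1 were nearer the splicing gene, 3 and 90 bp upstream of its TSS. The same split was not computed for other opposing pairs. When each summit was given to its nearest TSS alone, 6 of the 10 genes were still bound, against 36.1% of protein-coding genes. Among all bound protein-coding genes the median summit lay 44 bp upstream of the TSS and 5.32% lay more than 200 bp from it. SmB and SmD1 belong to those 5.32%.

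Ranks of the strongest summit within 500 bp of the TSS set 3 genes above the rest in the replicates. At snRNP-U1-C and SmG this summit lay beyond 250 bp in every replicate, nearer gukh and mthl1. The summit that replicate 3 had 15 bp upstream of SmG ranked 3974. The ranks of snRNP-U1-C, at a mean of 108 ± 38.4 (SD, n = 3), did not overlap with those of snRNP-U1-70K, at 207 ± 49.7. SmD3, at 293 ± 107, overlapped with snRNP-U1-70K. These 3 genes were above all others in every replicate. SmE at 788 ± 176, SmG at 882 ± 442 and snf at 1150 ± 456 overlapped with each other. SmF at 1530 ± 241 overlapped with SmG and snf but not with SmE. SmD2 at 2190 ± 331 stood below SmF in every replicate. SmB at 3230 ± 479 and SmD1 at 3440 ± 1270 came last and overlapped with each other. For these last genes the strongest summit changed position between replicates. It lay 3, 186 and 203 bp upstream at SmB and 90, 224 and 309 bp upstream at SmD1. Their SD is therefore not the spread of a single summit. With 3 replicates these overlaps are a description and no test was made.

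**Figure D2:**
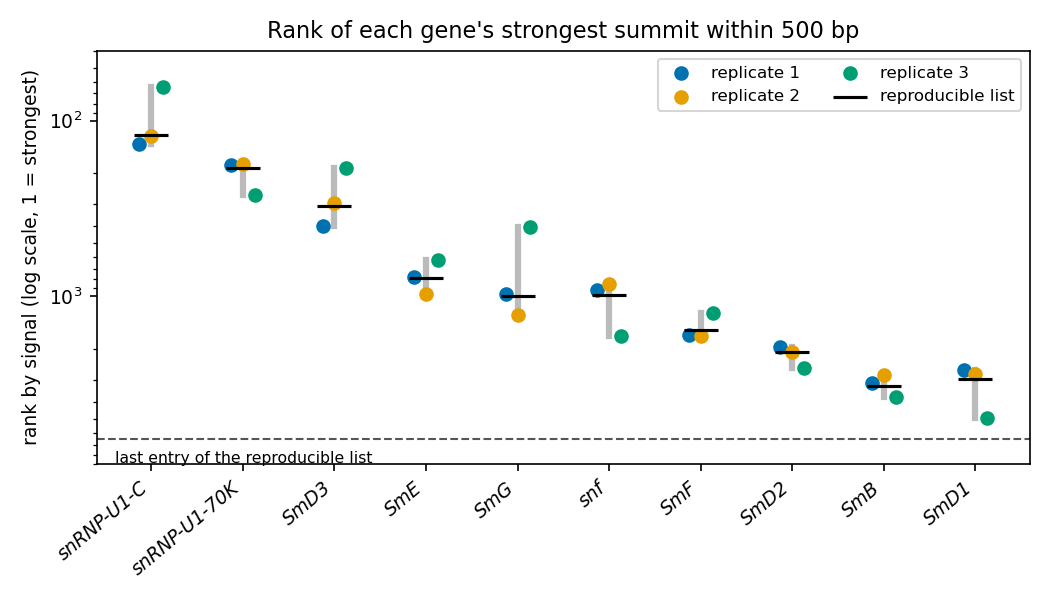
Rank by signal of the strongest summit within 500 bp of each gene's TSS, on a log axis with the strongest at the top. Points are the 3 replicates, grey bars their range, and black lines the rank in the reproducible list of 6522 summits. The genes run from snRNP-U1-C, at 64 to 136, to SmD1, at 2638 to 4906.

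The elements named above were frequent in these promoters. In the window from 250 bp upstream through the first 50 bases, a DRE was found at 4 genes (SmB, SmE, snRNP-U1-C and snf) and Motif 1 at 5 (SmD2, SmE, SmF, SmG and snRNP-U1-70K). At 8 of the 10 genes there was at least 1 of them. Of all 13945 promoters of this length, each at the gene's 5′ end, 9.36% held a DRE, 7.70% Motif 1 and 16.1% either. Of the promoters of the 5939 genes with a reproducible summit within 250 bp of any TSS 19.2%, 16.9% and 33.9% did. SmG and snRNP-U1-C are not among those genes. These are counts over 10 promoters and were not tested. No promoter of the group held Motif 6 (GGTATTTT, 5.27% of all promoters, 9.82% of those of the bound genes) or Motif 7 (CAGCGCTA, 0.574% and 0.657%). The E-box CAGCTG was in those of SmD3 and SmF (17.7% of all promoters, 24.3% of those of the bound genes). TATAAAA was in 4 (24.2% and 23.7%). CGATA, the core of the site of the insulator protein BEAF-32 and part of the DRE, was in 8 (47.4% and 62.8%). All motifs were searched on both strands, and a match in the letters is not evidence of a bound site.

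The element and the summit did not always coincide. At SmB 2 overlapping DREs were centred 27.5 and 21.5 bp from the summit, on the side of KdelR, and at SmD1 a DRE was centred 62.5 bp from it, on the side of Ptp69D. In the windows searched, neither gene had a DRE or Motif 1 nearer to its own TSS than that. At SmE the summit lay between a DRE, 93 to 86 bp upstream of the TSS, and Motif 1, 13 to 6 bp upstream. At snf the DRE covered the bases 9 to 2 bp upstream of the TSS, 57.5 bp from the summit. SmG had Motif 1 38 to 31 bp upstream of its own TSS, but also 2 copies within 26.5 bp of the summit beside mthl1. At snRNP-U1-C the DRE lay 40 to 33 bp upstream of the TSS and 232 bp from the summit, whose own window held Motif 1 49.5 bp away. At snRNP-U1-70K Motif 1 lay 15 to 22 bp downstream of the TSS, 132 bp from the summit. SmD3 had no DRE or Motif 1 in its promoter or summit window, although its peak was the third strongest. Its promoter held 4 copies of CGATA, all between 144 and 92 bp upstream of the TSS.

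**Figure D3:**
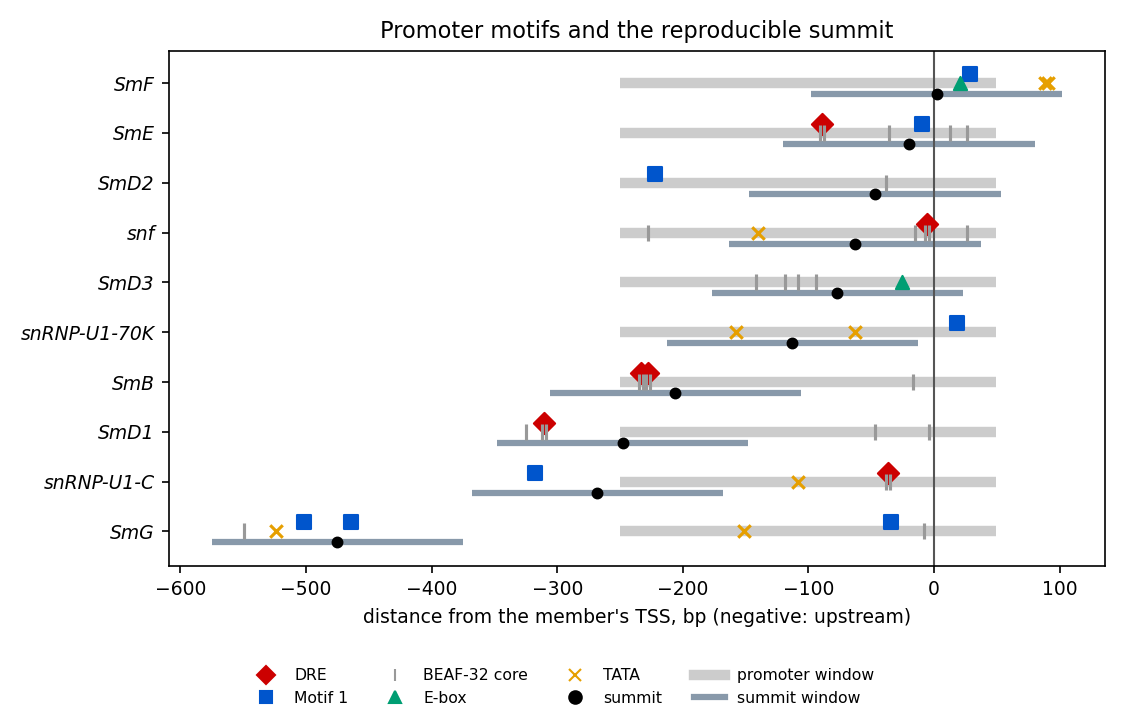
Positions of 5 promoter elements at the 10 genes, as distance in bp from the TSS. Light bars are the promoter windows, dark bars the 201 bp windows around the reproducible summit (black points), and symbols the elements found on either strand. Elements are shown wherever they fall in either window. At snRNP-U1-C the DRE stands 232 bp from the summit, and at SmB the paired DREs stand within 27.5 bp of it.

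Most of the further genes listed around the splicing machinery were also bound. These 57 pathway genes were grouped by role or, for the Lsm list, by kinship to the Sm proteins. Of them 50 had a reproducible summit within 250 bp, beside the 42.6% of protein-coding genes. The counts in replicates 1, 2 and 3 were 50, 49 and 49. The U2 list had 11 of 12 bound, led by Sf3a1 and Sf3b1, parts of the complexes that hold the branch point, with signals of 4372 and 3379. The U5 list had 6 of 8, led by CG3436 and by Brr2, the helicase that unwinds U4 from U6, at 3326 and 2299. The U4/U6 list had 3 of 4, led by Prp3 at 2526 and hoip at 825, and the list of U1-associated genes 3 of 4, led by Prp40 at 2349 and CG7564 at 1138. Of the Lsm list, relatives of the Sm proteins, 9 of 10 were bound, led by CG10418 and CG9344 at 2112 and 2036. Of the snRNP assembly list, which covers the SMN and methylosome complexes and the snRNA cap and transport, 9 of 10 were bound. They were led by icln at 2943 and the cap methylase Tgs1 at 1861. This list varied between replicates, with 10, 8 and 6 of 10 bound in replicates 1, 2 and 3. All 9 SR protein genes were bound, led by SF2 at 2423 and SC35 at 2380. The median signal over all bound protein-coding genes was 1520, and 6 of the 8 bound Sm and U1 genes were above it. Of the 50 bound pathway genes 21 were above it, where a median by definition has as many genes above it as below.

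Of the 7 pathway genes without a reproducible summit at the TSS, all but CG4849 had one within 500 bp. Counted together with SmG and snRNP-U1-C, 8 of 9 unbound genes did, against 6.99% of the 8006 unbound protein-coding genes. All 8 summits were upstream and nearer another gene, but by the rule they lay beyond 250 bp of the unbound gene. The same share was not computed for other unbound protein-coding genes. At CG3198 the summit was 395 bp upstream and 19 bp from Mcm6. At U2af38 it was 418 bp upstream and 23 bp from Stip1, and at LSm1 309 bp upstream and 20 bp from Xpd. At rig it was 267 bp upstream and 28 bp from maf-S, and at Prp6 436 bp upstream and 6 bp from CSN1b. The U4-U6-60K summit, 353 bp upstream, was the one that stands 33 bp from CG7564, itself in the U1-associated list. In single replicates some of these genes did have a summit within 250 bp: U2af38 in replicates 2 and 3, CG3198 and LSm1 in replicate 3 and rig in replicate 1. U4-U6-60K, Prp6 and CG4849 had none in any replicate. The exception to a summit within 500 bp was CG4849, with no reproducible summit within 600 bp.

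**Figure D4:**
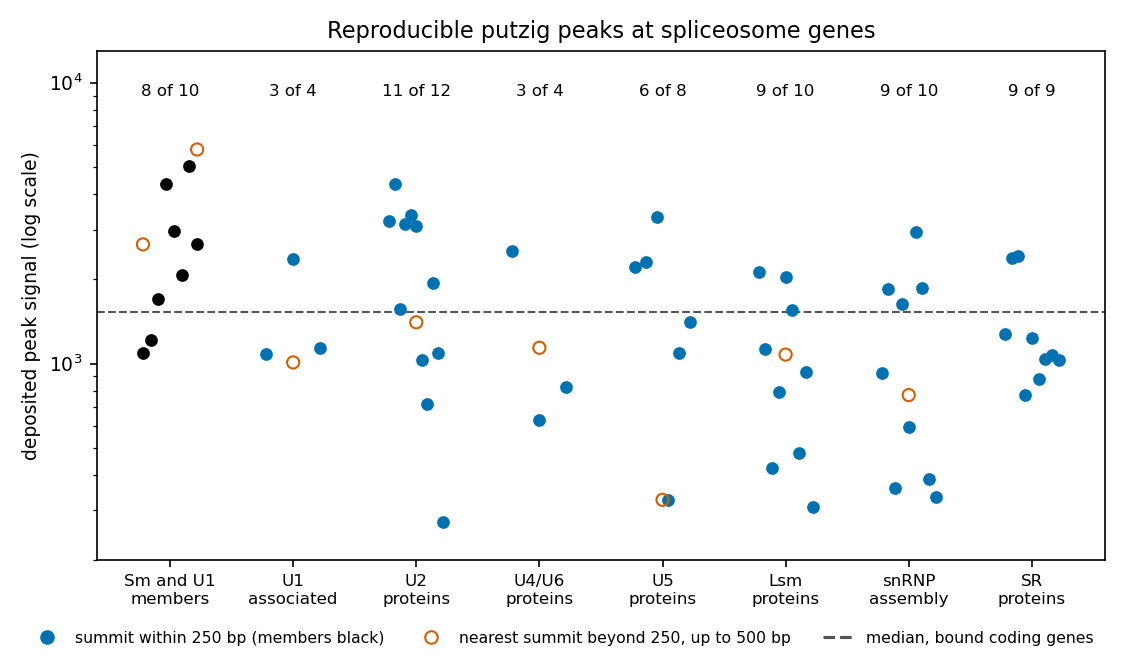
Deposited peak signal, on a log axis, of the reproducible summit at each gene of the group and of the 7 pathway lists. Filled points are genes with a summit within 250 bp of a TSS, open points genes whose nearest summit lies beyond 250 but within 500 bp, and the dashed line is the median of all bound protein-coding genes, 1520. The counts above are the bound genes of each list, 8 of 10 for the group itself.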

How the data were processed

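The authors deposited 5 peak lists in dm6 coordinates: 1 for each of 3 replicates, 1 from the pooled replicates and 1 thresholded by the irreproducible discovery rate. Per the deposited notes, each replicate list was derived from its own alignment and a control alignment shared by the replicates. Names and versions of aligner and peak caller were not given in the sources used here. Peak signal is the authors' value on an unnamed scale and was compared within a list alone. The deposited −log10 q values reach a ceiling, 4.12 in the reproducible list, and were not interpreted. Chromatin was sonicated to 200 to 800 bp, per the labels. The replicate lists hold 30000 entries each, background included, and the 6522 strongest of each were used. The reproducible list was derived from the replicate and pooled lists, per the deposited notes, so replicate values are not independent of it.

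TSSs came from Ensembl release 115 and sequence from RefSeq Release 6, and all peaks and genes lay inside the chromosome lengths of that assembly. A gene was bound when a summit lay within 250 bp of any of its TSSs. Where several summits qualified, the strongest was taken. Of 67 listed genes all were matched, 9 of them, SmG included, by locus tag, and 9 pathway genes are known here by a CG number. Named genes are the 10 members, neighbours with a TSS within 250 bp of a summit, and, per pathway list, the unbound genes and the 2 strongest. Prp8, holn1, LSm-4, the snRNA genes and the intron hosts CG7102, CG13175 and CG33964 were named after their values were seen. Secondary summits were described after their values were seen. Members and lists were chosen with earlier results of these data known, and no list was tested. Sequence of SmD3 and SmF is not reported here. Functions were checked on simulated data. Python 3.11.15, pandas 2.3.3 and NumPy 2.4.6 were used. Alternatives covered the TSS window, the TSS assignment, the peak set and each replicate left out.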

Additional observations from a re-analysis of the deposited data

How the results depend on the processing

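The number of bound Sm and U1 genes, 8 of 10 beside 42.6% of protein-coding genes, was 10 with TSS windows of 500 bp (46.6% of coding genes) and 1000 bp (49.1%). It was 9 when the peak interval had to cover the TSS (41.7%) and 6 with the nearest TSS alone (36.1%). It was 8 with the 5′ end of each gene (40.6%) and the pooled list (55.9%). It was also 8 with the peaks above the median signal of the reproducible list, 1080 (28.3%). It was 5 with a window of 100 bp (35.0%), by construction of the narrower window, and SmB, SmD1 and snRNP-U1-70K were then unbound besides SmG and snRNP-U1-C. It was 7 for summits found in every replicate (38.8%), and 7 to 8 when each replicate in turn was left out (39.1% to 41.3%). SmD2 was the gene lost, without replicate 1 and without replicate 2. The pathway count of 50 was 29 when peaks below that list median, 1080, were dropped, which shortens the list by construction. It was 42 to 56 under the other settings. Those settings include the cover of the TSS by the interval, chosen after seeing the data, with 49. The median signal over the bound genes, 2370, was 2670 with a window of 100 bp and 2660 with 500 and 1000 bp; SmG and snRNP-U1-C enter with the wider windows, and SmB, SmD1 and snRNP-U1-70K leave with the narrower one. It was 2370 with the nearest summit. A DRE was found at 4 genes in either window, though not the same 4, beside 9.36% of all promoters and 14.5% of all 6522 summit windows. Peak lists carry no counts, so counting error is unknown, and a missing summit here is not shown to be an unbound promoter. No paired analysis was possible because the samples form 1 group and no test was made.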

Other observations

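Of 32 snRNA genes, which make the RNA partners of these proteins and related RNAs, 4 had a reproducible summit within 250 bp of the TSS, beside 42.6% of protein-coding genes. No background for other genes of this kind was computed. The 4 were 1 of 5 U1 genes, 1 of 6 U2 genes, 1 of 7 U5 genes and 1 of the 2 genes of 7SK, which is no part of the spliceosome. The U1 gene was snRNA:U1:95Ca, with a signal of 502, rank 4928, and a summit 41 bp upstream that was called in every replicate. The summits at snRNA:U2:34ABb and snRNA:U5:63BC were among the weakest of the list, at ranks 6311 and 6165, and were found within 250 bp in 0 and 1 replicates. None of the 3 U4 and 3 U6 genes was bound. Copies of the same class can be similar in sequence, which was not measured here, so values at genes with several copies are uncertain.

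Some splicing genes are close neighbours. Prp8, the largest protein of the U5 particle, starts 5733 bp from SmD3, and SmF starts 15579 bp from SmD3. Near SmB are holn1, at 9368 bp, and LSm-4, at 21424 bp. Each of these genes carried a reproducible summit of its own, with signals of 2215 at Prp8, 327 at holn1 and 424 at LSm-4. Among the listed genes, CG7564 and U4-U6-60K, whose TSSs are 386 bp apart, were the one pair beside the same summit.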
